A study of Homo sapiens with 10 samples.

Results

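The genes described here are 7: PARP1, PARP2, PARP3, PARG, TNKS, TNKS2 and TIPARP. They code for the enzymes olaparib is made to block, for enzymes that share their chemistry and, with PARG, for an enzyme that removes ADP-ribose. They were chosen by name, and all 7 were present among the 12373 genes measured. The cells were Kuramochi, an established human ovarian cancer line that the labels call epithelial and BRCA2-mutant. All populations carried that mutation, were grown with insulin and came from 1 dose escalation. C is the untreated population, and 9 others, T1 to T320, are named for the micromolar dose of olaparib in which they reached confluency (1, 2.5, 5, 10, 20, 40, 80, 160 and 320 µM). Each population was profiled once by inDrop, a droplet method that tags each messenger RNA with a molecular identifier (UMI), so that no population has a replicate and 2 populations can be compared only as 2 libraries.

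PARP1 and PARP2 bind broken DNA and build chains of ADP-ribose from NAD on themselves, on histones and on other proteins, which draws in repair factors. Olaparib occupies the NAD site of both, and it holds PARP1 on the break as well as stopping chain building. Ovarian cancer cells without working BRCA2 are usually sensitive to such drugs, and loss of PARP1 protein is one of the known ways by which cells in culture tolerate a drug that works through trapped PARP1.

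The libraries held 18209 cells and 51277639 UMIs, from 1976069 UMIs in T5 to 9343704 in C, with medians of 1145 to 2974.5 UMIs per cell. Mitochondrial genes took 7.08% to 11.5% of the UMIs. Of the cells, 1984 carried a barcode seen in more than 1 library. Each library gave a gene either 0 UMIs or UMIs in at least 0.957% to 0.995% of its cells, so that a rare gene can stand at 0 without having been absent. T160 and T320 stood apart: 204 genes were at 0 in both and above 0 in each of the other 8 libraries, and the slopes of the 7 genes were also fitted over C to T80, without both. The list of 12 markers of Müllerian and serous ovarian epithelium was detected in full, with a summed level of 563 CPM in T160 to 2874 CPM in T2.5 and 2587 CPM in C. Fibroblast markers summed to between 69.7 CPM in C and 2273 CPM in T5 (5 of 8 genes in the table), endothelial markers to between 14.3 CPM in C and 204 CPM in T5 (4 of 5), and leukocyte markers to between 0 CPM in C and 43.9 CPM in T320 (1 of 8). The part of these shifts in the results was not tested.

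The windows around the starts of 3 of the genes are shown because these genes took different courses: PARP1 fell along the escalation, its closest relative PARP2 did not pass the test, and TIPARP is the gene of the group best known as a target of the aryl hydrocarbon receptor (AHR), whose core site was searched. Each runs 5′ to 3′ on the strand of the gene from 250 bases before to 50 bases after a RefSeq start on GRCh38.p14. Capitals mark GCGTG, the core bound by AHR with ARNT, and GGGCGG, the GC box bound by SP-family factors, on either strand (CACGC and CCGCCC are the same letters read from the other strand); no 2 marked matches overlap.
PARP1 promoter, chr1:226408044-226408343, minus strand: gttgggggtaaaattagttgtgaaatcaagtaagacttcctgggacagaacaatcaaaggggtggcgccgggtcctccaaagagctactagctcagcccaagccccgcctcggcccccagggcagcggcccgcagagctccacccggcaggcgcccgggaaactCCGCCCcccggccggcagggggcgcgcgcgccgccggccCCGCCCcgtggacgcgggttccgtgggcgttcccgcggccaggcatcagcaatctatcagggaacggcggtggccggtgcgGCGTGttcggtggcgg
PARP2 promoter, chr14:20343385-20343684, plus strand: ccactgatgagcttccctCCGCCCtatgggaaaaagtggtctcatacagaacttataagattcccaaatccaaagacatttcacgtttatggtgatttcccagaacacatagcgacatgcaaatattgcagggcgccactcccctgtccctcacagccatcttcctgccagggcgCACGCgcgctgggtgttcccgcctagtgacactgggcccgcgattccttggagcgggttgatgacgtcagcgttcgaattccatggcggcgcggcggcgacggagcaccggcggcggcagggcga
TIPARP promoter, chr3:156674340-156674639, plus strand: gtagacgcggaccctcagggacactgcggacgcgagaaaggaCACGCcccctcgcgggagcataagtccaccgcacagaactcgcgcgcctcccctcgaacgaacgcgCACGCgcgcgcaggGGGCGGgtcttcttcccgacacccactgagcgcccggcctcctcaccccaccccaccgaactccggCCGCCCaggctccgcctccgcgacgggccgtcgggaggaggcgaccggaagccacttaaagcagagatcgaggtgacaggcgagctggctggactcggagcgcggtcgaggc
The PARP1 window held 1 GCGTG and 2 GGGCGG, the PARP2 window 1 of each, and the TIPARP window 2 of each. Of 35116 promoters of the same length, 36.5% held GCGTG and 45.0% held GGGCGG, so that both are common in promoters at large. TIPARP had 2 further starts, and neither of their windows held GCGTG. The windows of PARP3, PARG and TNKS2, not shown, held 1 GCGTG each. TNKS had no window in this search.

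PARP1, which makes most of the ADP-ribose that cells build after DNA damage, is coded on the minus strand of chromosome 1 (chr1:226360691-226408079, GRCh38). It stood at 399 CPM (UMIs scaled to 1000000 UMIs per library) in C, 445 at 1 µM, 307 at 2.5 µM, 248 at 5 µM, 238 at 10 µM, 224 at 20 µM, 172 at 40 µM, 188 at 80 µM, 132 at 160 µM and 205 at 320 µM, from 491 to 3732 UMIs per library. The untreated cells and those of the lowest dose were the highest, all 8 populations from 2.5 µM upwards were lower than both, and T160 was the lowest. Ranked by level, T1 lay above C, C above T2.5 and T2.5 above T5 beyond counting error, while T5, T10, T20, T320, T80 and T40 did not differ from their neighbours in that order, and T160 lay below T40. The slope across the 10 populations, fitted on all genes with edgeR's quasi-likelihood test, was -0.18 log2 units per step (SE 0.032; adjusted p = 0.00635 by Benjamini-Hochberg over 11387 genes), which adds up to -1.58 over 9 steps.

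Among the 7 genes, PARP1 alone passed this test in either direction, with 1 falling and 0 rising, and 3 had an unadjusted p under 0.05. Over all genes tested, 8.99% were called as falling and 8.03% as rising, 17.0% in all, so that 1 call in 7 is near the background. With the library total in place of TMM scaling the split of all calls moved to 1255 rising and 755 falling, against 914 and 1024. Of the 3761 genes with a mean of at least 50 CPM, 298 (7.92%) had a lower slope than PARP1. The populations are successive stages of 1 escalation, which the test treats as independent. The PARP1 slope kept its call when any 1 population was left out (adjusted p 0.00769 to 0.0181) and over C to T80 (-0.19, adjusted p = 0.0214), but not when C and T1 were both left out (-0.13, adjusted p = 0.0740).

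**Figure D1:**
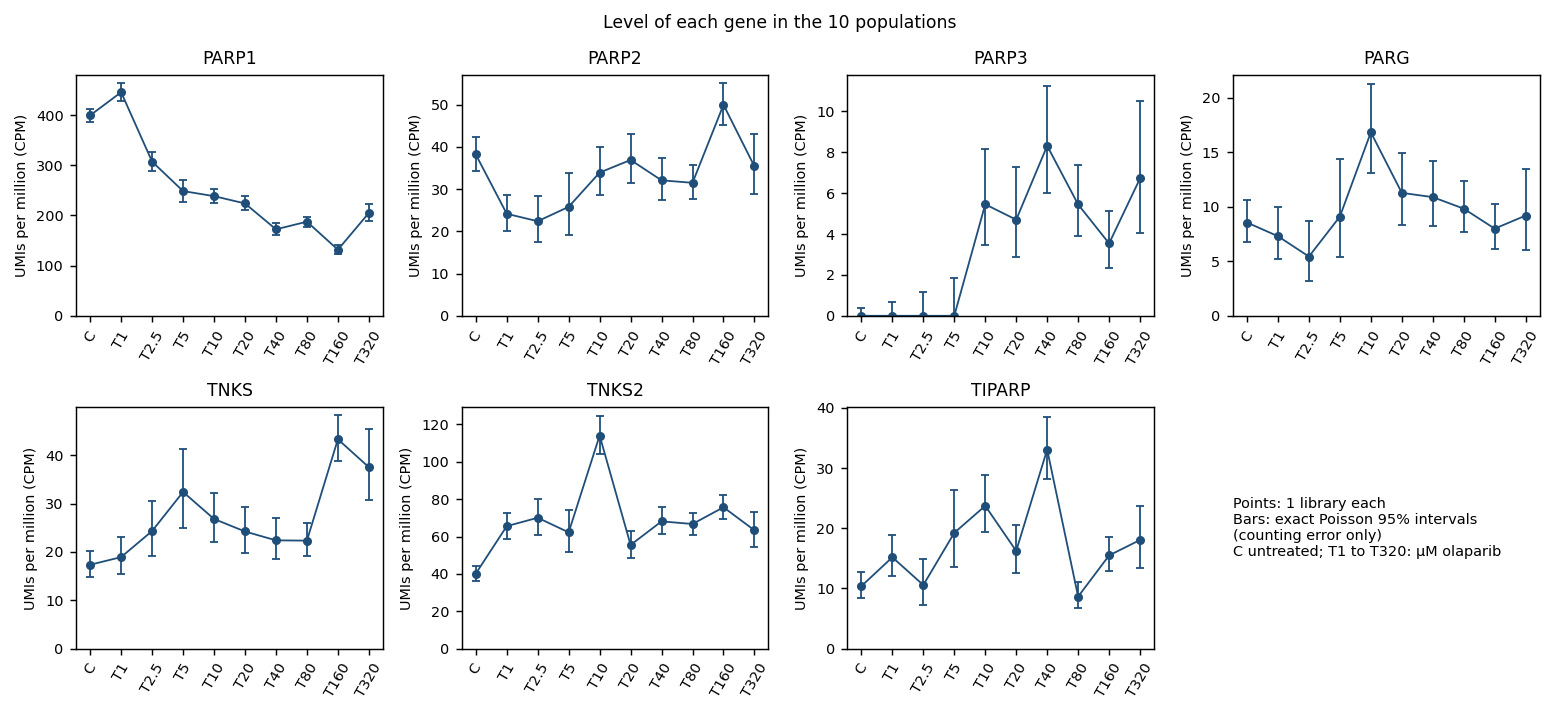
Level of each of the 7 genes in CPM (y axes, which start at 0 and differ between panels) in C and the 9 exposed populations (x axes, in order of olaparib dose). Points are single libraries and bars are exact Poisson 95% intervals for counting error only. A gene seen in too few cells of a library is given as 0, so the bars of PARP3 up to T5 do not bound its level there. PARP1 goes down in steps to 132 CPM in T160, PARP3 is at 0 up to T5, and TNKS2 has a single high point of 114 CPM in T10.

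Set against C, PARP1 was 1.12-fold higher in T1 (95% counting interval 1.06 to 1.17). It was 2.32-fold lower in T40 (2.15 to 2.50), 2.13-fold lower in T80 (2.003 to 2.27) and 3.03-fold lower in T160 (2.83 to 3.26), and these 3 populations were past a difference of 1 in log2(CPM + 10). The shares of measured genes that were lower than in C by that size were 8.76% in T40, 13.0% in T80 and 11.0% in T160, so that PARP1 was 1 of many. In T320 the difference was -0.93 (1.95-fold lower, 1.79 to 2.13), short of that size with library totals and past it with TMM scaling (-1.20), which moved the median of all measured genes to -0.22 from the 0.12 of library totals. With library totals, 11.6% of measured genes were lower in T320 and 15.4% higher by at least that much, and none of the 7 genes was past it in either direction. The last step went the other way: 205 CPM in T320 against 132 CPM in T160, 1.56-fold higher (1.40 to 1.73), above the change of 93.8% of measured genes at that step.

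The share of cells with a PARP1 UMI followed the level. After every cell was thinned to 1000 UMIs, which leaves out between 10 of 2262 cells in T80 and 614 of 1561 in T2.5 (365 of 1845 in C), a PARP1 UMI was found in 32.1% of C cells, 35.95% at 1 µM, 25.2% at 2.5 µM, 18.9% at 5 µM, 20.8% at 10 µM, 18.1% at 20 µM, 16.4% at 40 µM, 16.9% at 80 µM, 11.7% at 160 µM and 17.97% at 320 µM. Without thinning the share was 32.1% in T320 and 61.1% in C. The variance of the thinned UMIs per cell was 1.01 to 1.16 times their mean, where random sampling of 1 common level gives a ratio of 1. The line holds no cell type that lacks PARP1, so no background share from free RNA in the droplets can be given.

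In a table deposited by the authors, 8240 cells (45.3%) carry a state label: C, S1, S2, S3, S4 or S5. The sources used here do not say how the states were drawn, and since they may rest on expression of these same cells, the levels by state are a description. PARP1 stood at 330 CPM in state C, 354 in S1, 205 in S2, 106 in S3, 146 in S4 and 119 in S5. States also differ by library, and similar differences appeared within libraries. In T2.5 the S2 cells had 172 CPM and the S1 cells 270 CPM (ratio 0.635, 0.475 to 0.837), and in T5 the S2 cells had 189 CPM and the S1 cells 290 CPM (0.651, 0.510 to 0.829). In T10 the S3 cells had 107 CPM and the S4 cells 159 CPM, against 220 CPM in S2 cells. In T20 the S3 cells had 98.7 CPM and the S4 cells 92.9 CPM, against 205 CPM in S2 cells. In these 4 libraries PARP1 was lower in S2 than in S1, or in S3 and S4 than in S2, beyond counting error, within cells of a single dose. S4 and S3 were within counting error of each other in T10 (1.49, 0.98 to 2.32), in T20 (0.94, 0.55 to 1.57) and in T40 (1.07, 0.81 to 1.44), and S4 was higher than S3 in T80 (164 and 105 CPM).

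**Figure D2:**
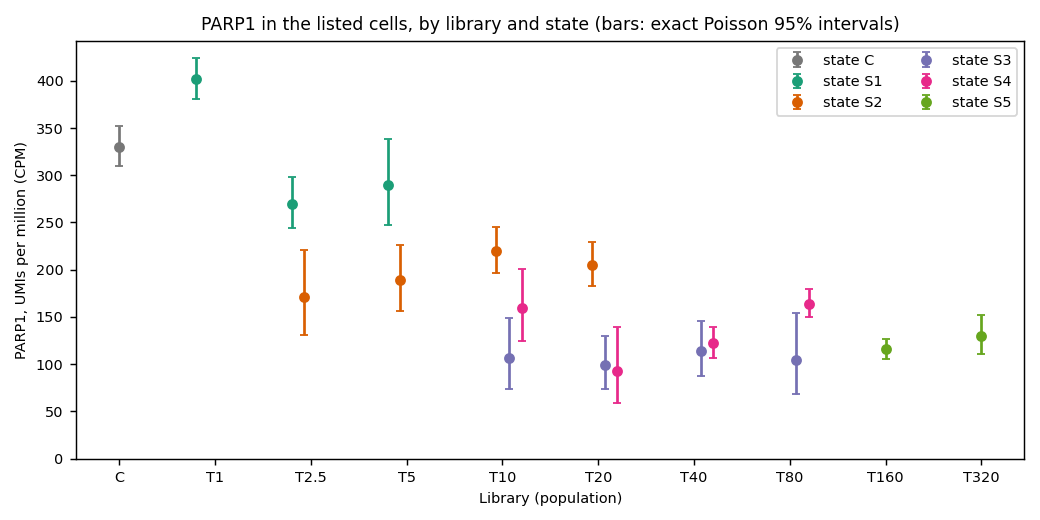
PARP1 level in CPM (y axis) in the listed cells of each library (x axis), split by the deposited state (colours); bars are exact Poisson 95% intervals. Where S1 and S2 or S2 and S3 come from 1 library, the later-numbered state is lower, for example 172 CPM in S2 and 270 CPM in S1 of T2.5.

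The cells left out of that table carried more PARP1 than the listed ones in 10 of 10 libraries, by 1.13-fold in T5 to 2.004-fold in T320, with an interval that included 1 in T5 only. They also carried far more transcripts of cell division: the G1/S list of 24 genes summed to 2158 to 3797 CPM in unlisted cells and 485 to 960 CPM in listed cells, and the G2/M list of 24 genes to 3196 to 6337 CPM in unlisted cells and 390 to 1062 CPM in listed cells. Depth differed most in C, with a median of 1669.5 UMIs in unlisted and 5946 in listed cells, and little in T320, with 1794 in unlisted and 1934 in listed cells. The part of depth in the PARP1 ratios was not tested. Within all cells thinned to 1000 UMIs, PARP1 was higher in cells with at least 3 UMIs of the G1/S list than in the rest in 10 of 10 libraries, 1.05-fold to 2.02-fold, beyond counting error in 9. For the G2/M list the ratio ran from 0.98 to 1.85, above 1 beyond counting error in 7. PARP2 was also higher in unlisted than in listed cells in 10 of 10 libraries, from 1.23-fold in T20 (0.89 to 1.70) to 1.66-fold in T10 (1.17 to 2.36). Its ratio by the G1/S list ran from 0.94 to 2.28, above 1 beyond counting error in 3 libraries.

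The higher PARP1 level of T320 over T160 was larger in the unlisted cells than in the listed ones, a difference that was not tested. Unlisted cells had 261 CPM in T320 and 152 CPM in T160 (1.71-fold higher, 1.503 to 1.95), whereas the listed cells had 130 CPM in T320 and 116 CPM in T160 (1.12, 0.93 to 1.35). Set against C, PARP1 in T320 was 1.65-fold lower in unlisted cells (1.49 to 1.83) and 2.54-fold lower in listed cells (2.14 to 3.03). In T1 it was 1.19-fold higher than in C in unlisted cells (1.11 to 1.28) and 1.22-fold in listed cells (1.12 to 1.32). The ratio of T5 to T2.5 was 0.70 in unlisted cells (0.60 to 0.83) and 0.94 in listed cells (0.81 to 1.09). Listed cells were 453 of 1845 in C and 1223 of 2312 in T1, so that differences over all cells also carry the mix of listed and unlisted cells. The fall along the escalation was called in the listed cells alone as well (slope -0.20, adjusted p = 0.00319, edgeR).

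**Figure D3:**
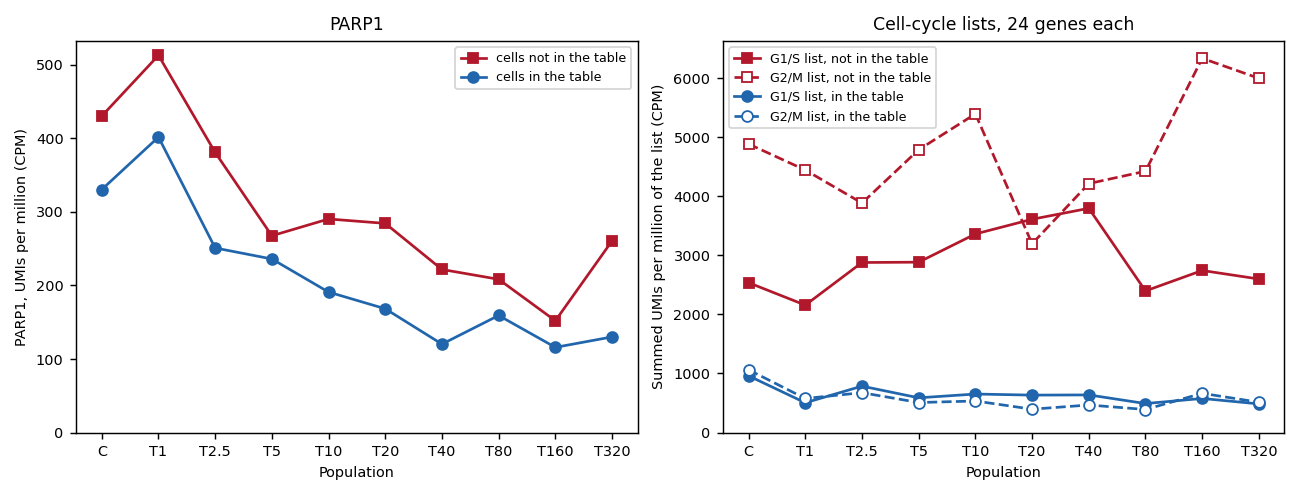
Left, PARP1 in CPM (y axis) by population (x axis) in cells that are not in the deposited table of states (red squares) and in cells that are (blue circles). Right, the summed CPM of the G1/S list (filled, solid) and the G2/M list (open, dashed) in the same cells. Cells not in the table are above the others for PARP1 and for both lists in all 10 populations.

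PARP1 was one of many chromosome 1 genes that fell. Of 1159 tested genes of chromosome 1, 327 were called as falling and 20 as rising, with a median slope of -0.09, and of the 99 tested genes within 10 Mb of PARP1, 27 fell and 1 rose, with a median of -0.10. Over all 11387 genes tested, 1024 (8.99%) fell and 914 (8.03%) rose, and the median slope was 0.00. Of the 5 measured neighbours on each side, 3 of 10 fell: ARF1, a GTPase of the Golgi (slope -0.18, adjusted p = 0.00847), CDC42BPA, a kinase of the cytoskeleton (-0.23, adjusted p = 0.00785), and SRP9, a subunit of the signal recognition particle (-0.16, adjusted p = 0.0328, lost when any 1 of 5 populations was left out). Over C to T80 none of the 3 calls held (adjusted p 0.0997 for ARF1, 0.0605 for CDC42BPA and 0.0870 for SRP9). H3F3A, a histone gene among the 10, was one of the genes at 0 in T160 and T320. The PARP1 slope was lower than the median of its neighbours, -0.11. At the last step the median difference of the neighbours from C moved as PARP1 did, from -0.96 in T160 to -0.39 in T320. That of all measured chromosome 1 genes went the other way, from -0.41 in T160 to -0.50 in T320. The part of gene copy number in the PARP1 level was not tested.

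**Figure D4:**
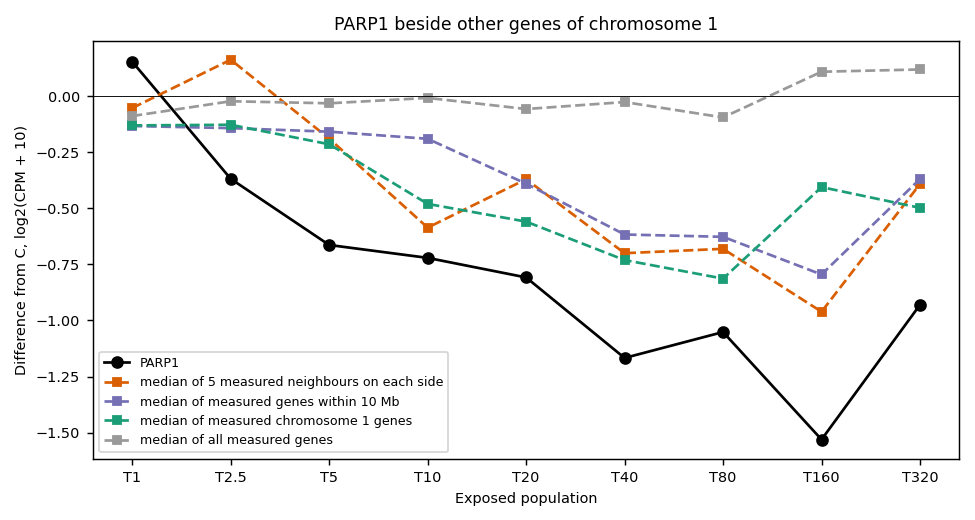
Difference from C in log2(CPM + 10) (y axis) in the 9 exposed populations (x axis) for PARP1 (black) and as medians over its 5 measured neighbours on each side, the measured genes within 10 Mb, all measured genes of chromosome 1, and all measured genes. PARP1 reaches -1.53 in T160, below all 4 medians from T2.5 onwards.

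By the likeness of their levels over the 10 populations, among the 3761 genes with a mean of at least 50 CPM, the genes nearest to PARP1 were SERBP1 (Pearson r of log2(CPM + 10) 0.97), an mRNA-binding protein gene of chromosome 1, DSP (0.96), which codes for the desmosome protein desmoplakin, and PRRC2C (0.93), also on chromosome 1. DSP moved further than PARP1, with 54.5 CPM in T320 and 273 CPM in C. These correlations describe 10 libraries that are stages of 1 escalation and share their depths with each gene.

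PARP2, which builds ADP-ribose chains at single-strand breaks beside PARP1 and is also an olaparib target, is on chromosome 14 (chr14:20343582-20357905). It stood at 38.2 CPM in C, 24.2 at 1 µM, 22.4 at 2.5 µM, 25.8 at 5 µM, 33.9 at 10 µM, 36.9 at 20 µM, 32.1 at 40 µM, 31.5 at 80 µM, 49.97 at 160 µM and 35.4 at 320 µM, from 1787 UMIs in all. T160 was the highest, beyond counting error of C, the next in order, and no other neighbours in the order were apart. T1 had 24.2 CPM and C 38.2 CPM (1.58-fold lower in T1, 1.29 to 1.95). In T160, where PARP1 was lowest, PARP2 was 1.31-fold higher than in C (1.13 to 1.52). The slope was 0.03 (SE 0.034; adjusted p = 0.544, edgeR), which is not distinguishable from 0, and 0.02 over C to T80 (adjusted p = 0.875). It was 0.09 without C (adjusted p = 0.0908) and 0.01 without T160. The nearest genes in pattern were BAIAP2L1 (r = 0.91), HMCES (0.90), which codes for a protein that shields abasic sites in single-stranded DNA, and ALDH3A2 (0.90).

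PARP3, which adds single ADP-ribose units and takes part in joining double-strand breaks, is on chromosome 3 (chr3:51942345-51948867). It was at 0 CPM in C, T1, T2.5 and T5, then at 5.46 CPM at 10 µM, 4.70 at 20 µM, 8.32 at 40 µM, 5.45 at 80 µM, 3.54 at 160 µM and 6.72 at 320 µM. All 4 populations up to 5 µM were at 0 and all 6 from 10 µM upwards were not, but the whole signal was 172 UMIs and a gene seen in under about 1% of cells is given as 0, so that no fold is given. Over the listed cells PARP3 stood at 1.03 CPM in S2, 13.5 in S3, 6.48 in S4 and 4.18 in S5. In T20 the 149 S3 cells held 12 UMIs and the 417 S2 cells held 0. In T10 the S3 cells held 5 UMIs and the S2 cells 4 (ratio of CPM 5.63, 1.21 to 28.4). S3 cells were not higher than S4 cells in T40 (7.24 and 7.86 CPM) or in T80 (4.03 and 5.77 CPM). The slope of 0.90 (SE 0.365) had an adjusted p of 0.111 with edgeR and of 0.00196 with DESeq2. PARP3 was given as 0 in 4 libraries, as any gene seen in under about 1% of cells is. Its slope and its call therefore depend on that limit as well as on the fit. Over C to T80 the adjusted p was 0.0780 with edgeR.

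PARG, the hydrolase that cuts ADP-ribose chains back and so opposes PARP1 and PARP2, is on chromosome 10 (chr10:49818279-49970203). It stood at 8.56 CPM in C, 7.31 at 1 µM, 5.44 at 2.5 µM, 9.11 at 5 µM, 16.8 at 10 µM, 11.3 at 20 µM, 10.9 at 40 µM, 9.83 at 80 µM, 8.001 at 160 µM and 9.20 at 320 µM, from 489 UMIs. T10 was the highest, apart from T20 beyond counting error and 1.97-fold higher than C (1.41 to 2.74), and the rest did not differ from their neighbours in the order. The slope was 0.01 (SE 0.060; adjusted p = 0.892, edgeR) and 0.09 over C to T80 (adjusted p = 0.518). PARG lies opposite TIMM23B, which is also in the table, and the sources used here do not say whether reads were counted by strand.

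The tankyrases TNKS and TNKS2 attach ADP-ribose chains to axin, to the telomere protein TERF1 and to other partners, and act away from DNA breaks. TNKS, on chromosome 8, stood at 17.3 CPM in C, 18.9 at 1 µM, 24.3 at 2.5 µM, 32.4 at 5 µM, 26.8 at 10 µM, 24.2 at 20 µM, 22.4 at 40 µM, 22.3 at 80 µM, 43.3 at 160 µM and 37.5 at 320 µM. C was the lowest and T160 the highest, 2.50-fold above C (2.06 to 3.03), and T320 was 2.16-fold above C (1.68 to 2.78), although no 2 neighbours in the order were apart. The slope was 0.08 (SE 0.031) with an adjusted p of 0.106 with edgeR, not passing the test, and of 0.0450 with DESeq2. Over C to T80, without the 2 populations where TNKS was highest, the slope was 0.04 (adjusted p = 0.673, edgeR). State S5, which is made up of T160 and T320, had 40.6 CPM, and the other states 18.4 to 28.0 CPM. The genes nearest to TNKS were PITPNA (r = 0.94), TGFBR3 (0.94), a co-receptor of TGF-beta, and GDF15 (0.92), a stress-induced cytokine with 119 CPM in T320 and 6.31 CPM in C.

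TNKS2, on chromosome 10 (chr10:91798312-91865276), stood at 40.1 CPM in C, 65.6 at 1 µM, 70.1 at 2.5 µM, 62.2 at 5 µM, 114 at 10 µM, 55.5 at 20 µM, 68.1 at 40 µM, 66.7 at 80 µM, 75.7 at 160 µM and 63.3 at 320 µM, from 3386 UMIs. All 9 exposed populations were higher than C, and T10 lay above all others beyond counting error. T10 was 2.84-fold above C (2.48 to 3.26), a log2 difference of 1.31 at a dose where 13.0% of measured genes were higher by at least 1, and T320 was 1.58-fold above C (1.31 to 1.89). The slope was 0.01 (SE 0.041; adjusted p = 0.846, edgeR) and 0.06 over C to T80 (adjusted p = 0.591), with a difference from C already in T1 (1.63-fold, 1.41 to 1.89). In T10, TNKS2 had 125 CPM in S2 cells (107 to 144), 144 CPM in S3 cells (106 to 192) and 94.99 CPM in S4 cells (68.7 to 128), and the last interval overlaps those of S4 cells in T40 (77.5 CPM) and T80 (79.0 CPM). ARFGEF2 (r = 0.94), a gene for an exchange factor of ARF GTPases, and CBFA2T2 (0.93), a gene for a transcriptional corepressor, were the nearest in pattern among those reported.

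TIPARP, which adds single ADP-ribose units and damps AHR signalling, is on chromosome 3 (chr3:156673235-156706770). It stood at 10.4 CPM in C, 15.2 at 1 µM, 10.6 at 2.5 µM, 19.2 at 5 µM, 23.7 at 10 µM, 16.2 at 20 µM, 33.1 at 40 µM, 8.64 at 80 µM, 15.5 at 160 µM and 18.05 at 320 µM. T40 was the highest, apart from T10, the next, and 3.19-fold above C (2.47 to 4.14) at a level under the minimum of 50 CPM set for calls, while T80 was the lowest, so that the level swung between neighbouring doses. The slope was 0.04 (SE 0.064; adjusted p = 0.729, edgeR), 0.11 over C to T80 (adjusted p = 0.498) and 0.0026 without C. Within T5 the S2 cells had 6.25 CPM and the S1 cells 43.0 CPM (ratio 0.145, 0.037 to 0.423), and within T10 the S4 cells had 8.84 CPM and the S2 cells 26.4 CPM (0.334, 0.087 to 0.928). Other pairs went the other way within counting error: in T10 the S3 cells had 50.1 CPM and the S2 cells 26.4 CPM (1.90, 0.99 to 3.48), and in T2.5 the ratio of S2 to S1 cells was 1.30 (0.37 to 3.72).

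The other ADP-ribosyltransferases, of which 11 were tested, held 4 that fell and 0 that rose, with a median slope of -0.10. The 4 were PARP14 (slope -0.34, adjusted p = 0.00775), PARP9 (-0.28, adjusted p = 0.0205), PARP12 (-0.24, adjusted p = 0.0190) and ZC3HAV1 (-0.15, adjusted p = 0.0486), all by edgeR. PARP9 binds DTX3L, PARP14 is a large macrodomain protein, PARP12 and ZC3HAV1 carry zinc fingers that bind RNA, and all 4 are known as genes induced by interferon. PARP14 had 82.5 CPM in C, 183 at 1 µM, 102 at 2.5 µM, 58.7 at 5 µM, 86.1 at 10 µM, 103 at 20 µM, 35.7 at 40 µM, 23.9 at 80 µM, 31.3 at 160 µM and 16.3 at 320 µM. It was highest in T1, as PARP1 was, and low from T40 onwards. The PARP14 call held whichever population was left out. Over C to T80 none of the 4 calls held (adjusted p 0.0801 for PARP14, 0.0670 for PARP12, 0.206 for PARP9 and 0.540 for ZC3HAV1). The PARP12 call was lost without T1 or T320, the PARP9 call without T1, T160 or T320, and the ZC3HAV1 call when any 1 of 8 populations was left out.

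Of the genes that read or remove ADP-ribose, 14 were tested, 2 rose and 1 fell. HPF1, the cofactor that turns PARP1 and PARP2 toward serine, rose (slope 0.21, SE 0.039; adjusted p = 0.00654, edgeR). It had 10.6 CPM in C, 13.9 at 1 µM, 13.1 at 2.5 µM, 7.59 at 5 µM, 18.5 at 10 µM, 20.9 at 20 µM, 22.6 at 40 µM, 20.3 at 80 µM, 34.9 at 160 µM and 56.6 at 320 µM, so that it was highest where the dose was highest. Of the sequence in its last 500 bases, 31.9% of the 31-base words also occur in other genes, which makes its level uncertain, and the call did not hold over C to T80 (adjusted p = 0.112). RNF114, a ubiquitin ligase that reads ADP-ribose, rose (0.10, adjusted p = 0.0161, lost without T320), and TRIP12, a ubiquitin ligase that marks PARP1 for removal, fell (-0.10, adjusted p = 0.0230, lost without T1, T80 or T320). TRIP12 was at 133 CPM in T320 and 215 CPM in C. Over C to T80 neither call held (adjusted p 0.190 for RNF114 and 0.155 for TRIP12).

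Of 21 tested genes of single-strand break and base excision repair, the pathway PARP1 serves, 2 rose and 0 fell. POLB, the gap-filling polymerase, rose (slope 0.17, adjusted p = 0.0124), with 48.5 CPM in T320 and 22.6 CPM in C. MPG, a glycosylase of alkylated bases, rose (0.14, adjusted p = 0.0301, lost without T2.5, T160 or T320), with 131 CPM in T320 and 41.6 CPM in C. Over C to T80 the slopes were 0.16 for POLB (adjusted p = 0.0853) and 0.04 for MPG (adjusted p = 0.616), and neither was called. XRCC1, the scaffold recruited by ADP-ribose, had 34.7 CPM in T320 and 43.3 CPM in C and did not pass the test (adjusted p = 0.107); it was chosen for its role after its values were seen.

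Of 16 tested tankyrase partners, 1 rose and 4 fell. USP25, a deubiquitinase bound by tankyrase, fell (-0.21, adjusted p = 0.00226), with 17.7 CPM in T320 and 41.4 CPM in C. BLZF1, a Golgi protein, fell (-0.19, adjusted p = 0.00404), and both calls held over C to T80. GMDS, an enzyme of fucose synthesis that binds tankyrase, rose (0.14, adjusted p = 0.0226, lost without T1, T2.5 or T160), and the fall of PEX14 (-0.16, adjusted p = 0.0443) was lost when any 1 of 8 populations was left out. TNKS1BP1, which codes for a protein that binds tankyrase, also fell (-0.10, adjusted p = 0.0486, lost when any 1 of 8 populations was left out); it is outside the rule for naming and was named after its values were seen. Over C to T80 the calls of GMDS and PEX14 held (adjusted p 0.0300 and 0.0298) and that of TNKS1BP1 did not (0.545). Of 7 tested genes of the AHR pathway, to which TIPARP belongs, 0 rose and 1 fell. The gene was ARNT, the partner of AHR (-0.11, adjusted p = 0.0397 by edgeR, lost when any 1 of 7 populations was left out, and 0.0516 over C to T80). BLZF1, PEX14 and ARNT are on chromosome 1, as PARP1 is, where 327 of 1159 tested genes fell. The part of that shared fall in these calls was not tested. CYP1B1, a cytochrome gene that AHR drives, had 610 CPM in T320 and 220 CPM in C. Between these it swung, with 848 CPM in T20, 245 in T40 and 1141 in T160. AHR itself had 32.6 CPM in T320 and 6.85 CPM in C, under the minimum of 50 CPM, with 27.5 CPM in T10 and 12.5 in T80. Neither CYP1B1 nor AHR passed the slope test (adjusted p 0.248 and 0.204, edgeR), and both were chosen after their values were seen. Of the cell-cycle lists, RRM2, a subunit of ribonucleotide reductase, was the single gene of 24 in the G1/S list to fall (-0.22, adjusted p = 0.0187, lost without C or T320, and 0.151 over C to T80). None of 24 passed in the G2/M list, where the most abundant, UBE2C and CENPF, had adjusted p of 0.304 and 0.464. The counts were 0 to 4 a direction in lists of 7 to 24 genes, set against 8.99% falling and 8.03% rising over all genes.

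**Figure D5:**
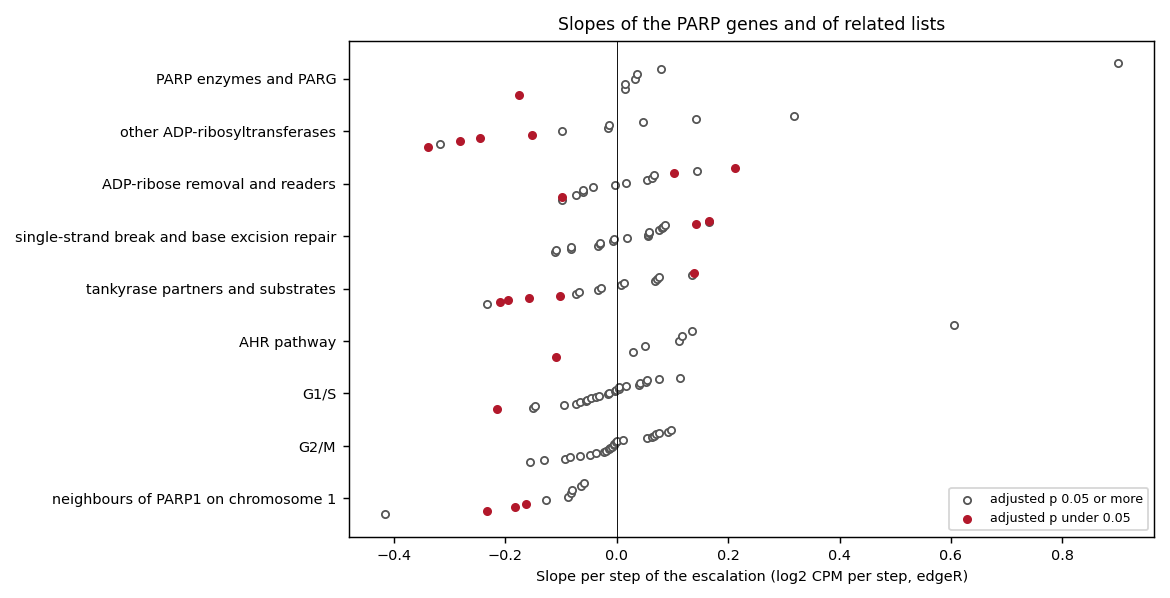
Slope per step of the escalation (x axis, log2 CPM per step, edgeR over 10 populations) for the 7 genes and for each tested gene of the other lists (rows); filled points have an adjusted p under 0.05. In the top row PARP1 at -0.18 is the single filled point, and in the row of other ADP-ribosyltransferases 4 points are filled, all below 0.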

How the data were processed

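Counts deposited by the authors give whole UMIs per gene and cell (12373 genes, 18209 cells, 1 library per population), with no normalization. In the authors' table of cells, UMIs and genes per cell are counts, the mitochondrial share is a deposited fraction, and 8240 cells have a state. That table was matched to the counts by name and, for T40, by barcode, with equal UMI totals. The submitters' processing notes name Seurat 2.3.2 and the builds hg38 and GRCh38. Aligner, counter and cell filters: not given in the sources used here.

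Counts were summed per population over all cells, with no further filter and no doublet caller, and scaled by library total to CPM. Differences are of log2(CPM + 10). A gene was measured with at least 100 UMIs over all and 50 CPM in 1 of the populations compared. With 1 library per population, differences between populations carry no test, and exact Poisson and binomial 95% intervals cover counting error only. Slopes per step (0 to 9) were tested with edgeR 4.0.16's quasi-likelihood test (TMM, at least 100 UMIs, 11387 genes, Benjamini-Hochberg, threshold 0.05) in R 4.3.3. The fit was also run on simulated counts drawn independently for each population, which cannot check the effect of dependence between stages of the escalation. DESeq2 1.42.0, limma 3.58.1, other scalings, filters, pseudocounts and sets of populations were alternatives, and leaving out both C and T1 was chosen after seeing the data. Positions and shared sequence came from GENCODE 29 on GRCh38, and promoters from RefSeq on GRCh38.p14. The genes and lists were chosen with earlier results of these data known. By rule the text names all 7 genes, up to 4 called genes with the smallest adjusted p per list (the 2 most abundant where none was called), the 3 genes most like each gene with a mean of at least 20 CPM, and PARP1's called neighbours. Some genes that this rule selects are not reported here.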

Additional observations from a re-analysis of the deposited data

How the results depend on the processing

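The PARP1 slope kept its direction and its call under each other test, scaling, filter, dose scale and set of cells or populations chosen at the start (adjusted p 3.85e-06 to 0.0214). Without single populations it lay between -0.21 and -0.16. With both C and T1 left out, a setting chosen after seeing the data, the slope was -0.13 (adjusted p = 0.0740) and the number of genes called as falling was 0 of 7. The number called as rising became 2 with DESeq2, PARP3 (slope 1.02) and TNKS (slope 0.08). PARP3 was given as 0 in C, T1, T2.5 and T5, as any gene seen in under about 1% of cells is. Its slope and call therefore depend on that limit and are no evidence of a rise. The PARP1 difference between T320 and C was -0.93 with library totals, -1.20 with TMM scaling, -1.16 with DESeq2 size factors and -1.28 in listed cells only. The median of all measured genes was 0.12 with library totals, -0.22 with TMM scaling and -0.16 with DESeq2 size factors. Without single populations the slope of PARP2 ran from 0.0114 to 0.0882, that of TIPARP from 0.0026 to 0.0682, that of PARG from -0.0072 to 0.0403 and that of TNKS2 from -0.026 to 0.0399. Slopes near 0 changed sign: PARG to -0.0056 with limma-voom, to -0.0017 without T1, to -0.0072 without T2.5 and to -0.019 with C and T1 left out; TNKS2 to -0.026 without C and to -0.044 with C and T1 left out; TIPARP to -0.017 with C and T1 left out. The cause was not tested. Over all genes, calls numbered 914 rising and 1024 falling, 1501 and 1694 with DESeq2, 410 and 517 over C to T80, and 547 and 641 with C and T1 left out. Without single populations they ranged from 488 to 981 rising and 537 to 1061 falling. PARP3 was not tested in listed cells, where it had under 100 UMIs. No paired analysis was possible because each population has 1 library. Depth limits the genes other than PARP1 and TNKS2, of which a thinned cell rarely holds a UMI.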
